A study of Mus musculus with 10 samples.

Results

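The MHC class I antigen processing genes followed here are 10 of the 43432 mouse genes in the deposited counts, chosen as a named pathway, with earlier results of these data known: the heavy chains H2-K1 and H2-D1, the light chain B2m, the peptide transporter genes Tap1 and Tap2, the loading factor Tapbp, the immunoproteasome subunits Psmb8, Psmb9 and Psmb10, and the proteasome activator subunit Psme1. All 10 symbols matched an Ensembl identifier and all 10 passed the filter on low counts, with 329 to 81304 counts per gene and library. RNA-seq was measured in RAW264.7 cells, a virus-transformed macrophage line of BALB/c mouse origin, in 5 conditions with 2 libraries each. The conditions were 0.5% DMSO alone (DMSO), 0.5% DMSO with 1 µg/mL LPS (DMSO + LPS), and LPS at that concentration with **1**, an α,β-unsaturated keto fatty acid from a marine cyanobacterial mat, at 32, 10 or 3.2 µM. The compound was given 1 h before LPS, and RNA was collected at 12 h. LPS is the bacterial lipopolysaccharide that macrophages sense through Toll-like receptor signaling. No library held **1** without LPS, so that each dose is a condition with LPS, and nothing in the labels beyond a replicate number says that the 2 libraries of a condition came from separate cultures, so p-values measure the spread between these libraries.

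Class I molecules show peptides from inside the cell to CD8 T cells. Proteasomes cut proteins into peptides, the immunoproteasome does so with 3 exchanged catalytic subunits, the Tap1/Tap2 transporter carries the peptides into the endoplasmic reticulum, and tapasin, the product of Tapbp, helps to load them on a heavy chain paired with β2-microglobulin, the product of B2m. Interferons and inflammatory stimuli are known to raise many of these genes in macrophages, with NLRC5, IRF1 and NF-κB among the factors that act on their promoters.

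Of the 10 genes, 7 lie on mouse chromosome 17 (GRCm38), in or near the MHC region, over 1351.601 kb. Psmb9, Tap1, Psmb8 and Tap2 stand next to each other in 34.335 kb (chr17:34181987-34216321). Psmb9 and Tap1 are transcribed away from each other from RefSeq start sites with 225 bases between them. B2m is on chromosome 2, Psmb10 on chromosome 8 and Psme1 on chromosome 14. The Psmb9 and Tap1 genes overlap by 212 bases on opposite strands in GENCODE M21, and whether the counting used the strand is not given in the sources used here, so reads in that overlap cannot be assigned to either gene with certainty. H2-K1 and H2-D1 have near-identical relatives among the H2-Q and H2-T genes and differ between mouse strains, and reads of BALB/c-derived cells were set against the C57BL/6J reference, so that their values and those of the other class I heavy chains are uncertain in how reads were split among copies.

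Promoter sequences of 9 of the 10 genes were found in RefSeq (GRCm38.p6), and those of B2m and H2-K1 are shown, the former because it held matches to 3 of the 5 motifs searched, the latter because it was the one with a match to the core of the antioxidant response element. Both run 5′ to 3′ on the strand of the gene and end at the base before the annotated transcript of GENCODE M21. Capitals in B2m (chr2:122147437-122147685, plus strand) mark, in order, the interferon-type motif (GAAA and GAAA with 2 free bases between them), the NF-κB-type motif (GGGA and TTCC with 2 free bases between them) on the other strand, and CCAAT on the other strand. Capitals in H2-K1 (chr17:34000348-34000597, minus strand) mark TGACNNNGC on the other strand, the core of the antioxidant response element, and then CCAAT on the other strand.
B2m: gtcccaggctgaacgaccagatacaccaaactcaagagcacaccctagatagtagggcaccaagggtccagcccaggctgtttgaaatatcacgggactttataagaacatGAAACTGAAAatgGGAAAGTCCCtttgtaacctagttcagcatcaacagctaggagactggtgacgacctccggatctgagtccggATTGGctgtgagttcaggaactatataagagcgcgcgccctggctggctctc
H2-K1: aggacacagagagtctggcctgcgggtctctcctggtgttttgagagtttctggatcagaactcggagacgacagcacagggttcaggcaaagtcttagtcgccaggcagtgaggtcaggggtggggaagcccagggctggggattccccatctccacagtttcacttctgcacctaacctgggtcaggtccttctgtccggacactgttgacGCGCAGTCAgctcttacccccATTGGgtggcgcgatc
On both strands of 300-base windows (250 before and 50 after the start), the interferon-type motif was found in 3.44% of 32851 RefSeq promoters and in 2 of the 9 (B2m, at -139 to -130, and Psme1, at 9 to 18), and the NF-κB-type motif in 1.47% of promoters and in 1 of the 9 (B2m, at -126 to -117). TTCNNNGAA, the interferon-γ-type motif, was found in 8.30% of promoters and in 1 of the 9 (Psmb8, at -97 to -89), and CCAAT in 37.4% and in 6 of the 9 (H2-K1, H2-D1, B2m, Tap1, Tapbp and Psmb9). TGACNNNGC was found in 12.4% of promoters and in 1 of the 9 (H2-K1), so the 9 held it no more often than promoters in general. The shares over all promoters count windows, while a member was counted when any of its windows had a match. None of these 5 motifs overlapped another in the sequences printed. A match describes letters and is no evidence of binding, and a window without a match says only that these letters are not in it. Only the letters given were searched. Sites of the same kind with other letters were neither counted nor marked, in the printed sequences too.

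Library totals lay between 45966803 and 58976377 counts, and the 10 genes took 0.204 to 0.379% of them. All 7 macrophage markers listed were present in every library, while 3 T cell markers summed to 0 to 2 counts and 3 B cell markers to 6 to 16. Replicate 1 at 10 µM stood apart with 1690 summed counts of 3 epithelial markers (Epcam, Krt8 and Cdh1), replicate 1 at 3.2 µM held 256, and the other 8 libraries held 0 to 4. Replicate 2 at 32 µM stood apart with 2.83% of its counts in ribosomal RNA features, against 0.153 to 0.333% elsewhere. Where leaving out one of these libraries changed a call of a member, the value or adjusted p without it is given with that call. Without replicate 1 at 3.2 µM no member was called at that dose, as with it. Levels below are CPM, counts scaled to library size with TMM factors, and differences are log2 fold changes. A gene was called when the change was at least 1.5-fold and the adjusted p of edgeR's quasi-likelihood test (Benjamini-Hochberg over 14172 genes) was under 0.05.

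LPS raised most of the class I genes in vehicle-treated cells. In DMSO + LPS against DMSO, 8 of the 10 genes were called higher and none lower, where 14.6% of all genes tested were called higher and 13.6% lower. The largest change among the 10 was that of Tap1, 4.07-fold, and the smallest that of Psme1, 1.19-fold. The median log2 fold change of the 10 was 1.09, against 0.0026 over all genes. The levels of DMSO + LPS lay above those of DMSO without overlap for all 10, which held for 76.9% of genes in either direction. Because the samples are bulk RNA, fewer cells of a kind and less RNA per cell cannot be told apart in any of these values.

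**Figure D1:**
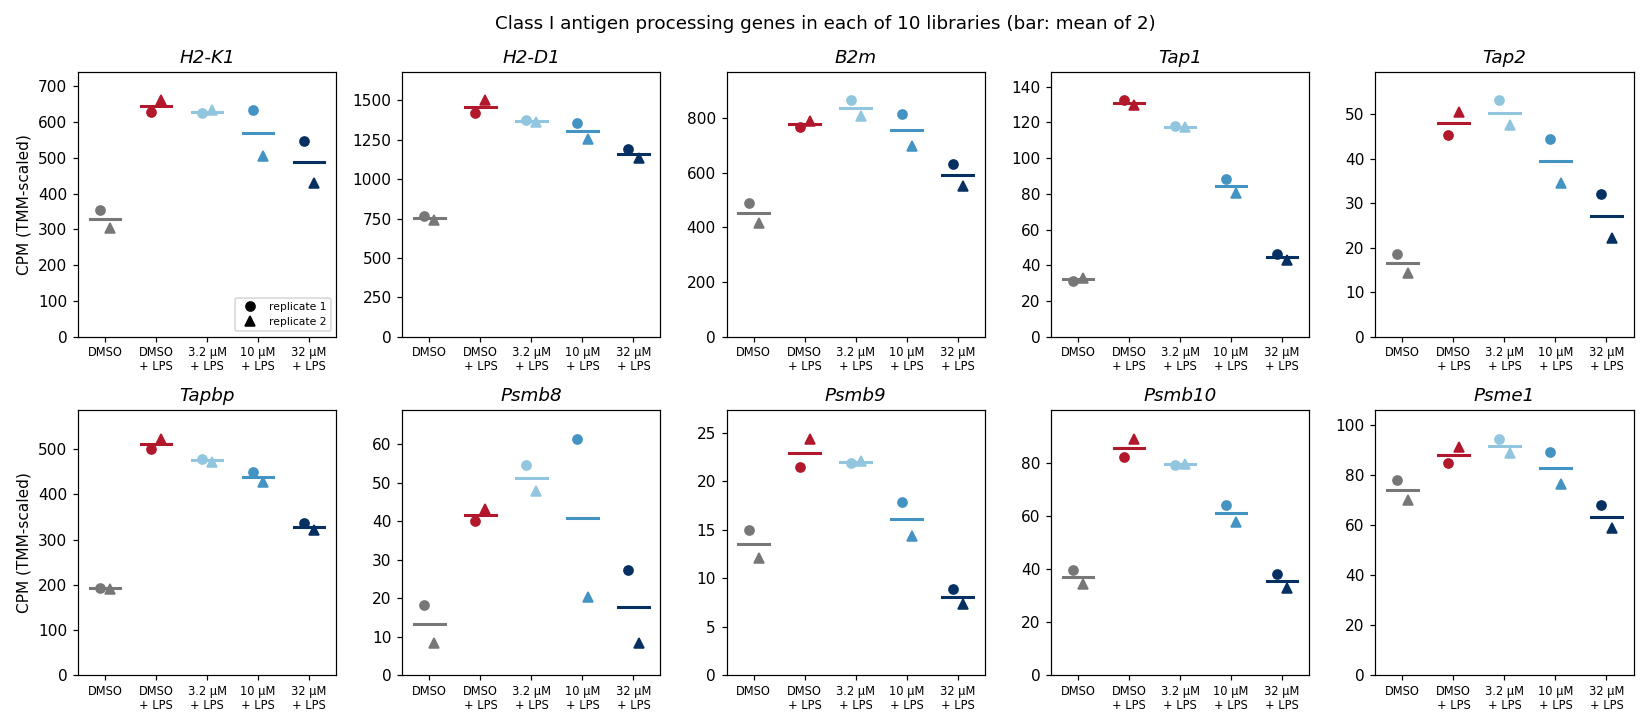
Level of each of the 10 genes in each of the 10 libraries, in CPM on TMM-scaled library sizes on an axis from 0. Circles are replicate 1, triangles replicate 2 and bars the mean of the 2; the last 3 conditions are the doses of **1** with LPS. The levels of Tap1 are lower at each higher dose, Psmb9 at 32 µM lies below DMSO, and the replicates of Psmb8 differ in DMSO and at 10 and 32 µM.

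The compound at 32 µM lowered part of the group. All 10 genes had lower levels at 32 µM than in DMSO + LPS, without overlap between the libraries of the 2 conditions, which held for 50% of all genes in either direction. Tap1, Psmb9, Psmb10, Tap2 and Tapbp were called lower and no member was called higher, where 2.91% of genes were called lower and 1.27% higher. H2-D1 and Psme1 had an adjusted p under 0.05 with changes under 1.5-fold, which makes 7 of 10 past that p, against 9.78% of genes. The median log2 fold change of the 10 was -0.73, against 0.0082 over all genes. Without replicate 2 at 32 µM, 4 of the 10 were called lower, the call of Tap2 being the one lost. The values kept were -1.50 for Tap1, -1.38 for Psmb9, -1.17 for Psmb10 and -0.61 for Tapbp (adjusted p from 1.2e-04 to 0.0059), and Psme1 no longer had an adjusted p under 0.05 (-0.38, adjusted p = 0.144). The summed level of the 7 macrophage markers was 10132 and 10264 CPM in DMSO + LPS and 8260 and 7837 CPM at 32 µM, and the part of this in the results was not tested. Of these markers 5 of 7 had negative values and 5 of 7 an adjusted p under 0.05, with a median log2 fold change of -0.31. Lyz2 (-0.61 ± 0.08) and Itgam (-0.67 ± 0.07) were called lower, Cd14 (-0.38 ± 0.04, adjusted p = 4.2e-04) and Adgre1 (-0.31 ± 0.05, adjusted p = 0.0042) were lower under the fold cutoff, and Spi1 had -0.12 ± 0.06 (adjusted p = 0.346). Csf1r was at 0.40 ± 0.05 (adjusted p = 0.0012, under the fold cutoff) and Cd68 at 0.10 ± 0.09 (adjusted p = 0.652). Errors after a log2 fold change are standard errors here and below. Most of the drop in the sum was in Lyz2, with 4093 and 4160.3 CPM in DMSO + LPS and 2828 and 2585 CPM at 32 µM.

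At 10 µM 1 member was called lower, Tap1, where 0.579% of genes were called lower, and none was called higher, where 0.282% were. The levels did not overlap with DMSO + LPS for 6 of the 10 (H2-D1, Tap1, Tap2, Tapbp, Psmb9 and Psmb10), against 35.8% of all genes. At 3.2 µM no member was called in edgeR's quasi-likelihood test, where 0% of all genes were called in either direction, nor by DESeq2's Wald test or edgeR's likelihood ratio test. Tap1 was the 1 member with an unadjusted p under 0.05 at that dose, against 4.23% of genes, and 6 of 10 did not overlap with DMSO + LPS, against 45.9%. Each dose was compared with the same 2 DMSO + LPS libraries, so the comparisons are not independent of each other.

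**Figure D2:**
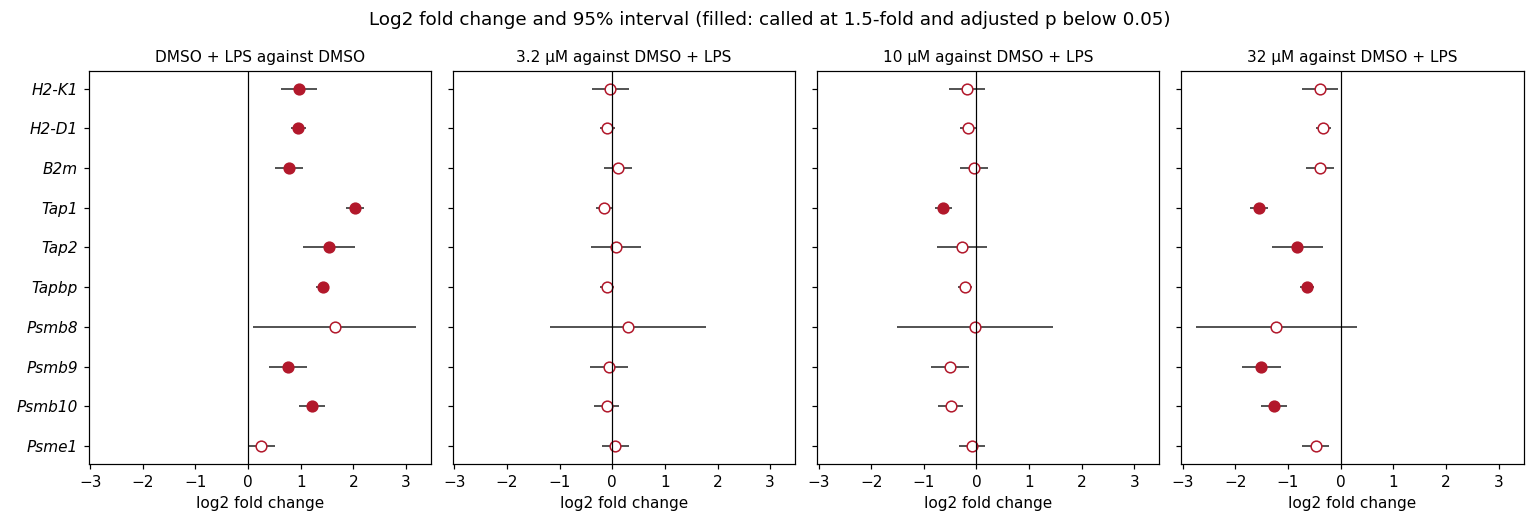
Log2 fold change of the 10 genes, with the 95% interval as a line, for DMSO + LPS against DMSO and for 3.2, 10 and 32 µM of **1** against DMSO + LPS. Filled points were called (1.5-fold and adjusted p under 0.05): 8 with LPS, 0 at 3.2 µM, 1 at 10 µM and 5 at 32 µM, and the interval of Psmb8 is the widest in each panel.

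Tap1 (ENSMUSG00000037321, chr17:34187553-34197225, plus strand), which encodes a chain of the peptide transporter, had the largest fitted rise with LPS among the members and was the one called at 10 µM. Its levels were 31.3 and 33.0 CPM in DMSO and 132 and 129.6 CPM in DMSO + LPS. With **1** they were 118.0 and 117 CPM at 3.2 µM, 88.5 and 80.5 CPM at 10 µM, and 46.3 and 42.7 CPM at 32 µM. Each condition was separate from every other, and the order was DMSO, 32 µM, 10 µM, 3.2 µM, DMSO + LPS. LPS raised Tap1 by 2.03 ± 0.06 on the log2 scale (adjusted p = 1.0e-07). The change against DMSO + LPS was -1.56 ± 0.06 at 32 µM (adjusted p = 5.4e-06) and -0.63 ± 0.06 at 10 µM (adjusted p = 0.0025). At 3.2 µM it was -0.15 ± 0.06, with a 95% interval from -0.30 to -0.01 and an adjusted p of 0.999. The step from 10 to 32 µM was -0.93 ± 0.06 (adjusted p = 2.3e-04), and that from 3.2 to 10 µM was -0.48 ± 0.06 (adjusted p = 0.018, under the 1.5-fold cutoff). Without replicate 1 at 10 µM, the 10 µM value was -0.70 (adjusted p = 0.0048). In a fit of only the 4 libraries compared, the 10 µM value was -0.63 (adjusted p = 0.068) and was not called. At 32 µM Tap1 stayed above DMSO by 0.47 ± 0.06 (adjusted p = 4.2e-04), a change under the 1.5-fold cutoff.

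Tap2 (ENSMUSG00000024339, chr17:34203527-34216321, plus strand), which encodes the partner chain, moved less at 32 µM. Its levels were 18.7 and 14.4 CPM in DMSO, 45.2 and 50.5 CPM in DMSO + LPS, and 32.0 and 22.1 CPM at 32 µM. At 10 µM they were 44.5 and 34.6 CPM and at 3.2 µM 53.1 and 47.6 CPM, the latter overlapping with DMSO + LPS. LPS raised Tap2 by 1.53 ± 0.20 (adjusted p = 3.8e-04), and at 32 µM it changed by -0.82 ± 0.20 (adjusted p = 0.041). The call was lost in 6 of 19 alternatives: without either DMSO + LPS library (adjusted p = 0.132 and 0.221), without replicate 2 at 32 µM (-0.58, adjusted p = 0.192), without either 3.2 µM library (adjusted p = 0.082 and 0.083) and with only the 4 libraries compared (adjusted p = 0.052). At 10 µM the change was -0.28 ± 0.20 (adjusted p = 0.715), with -0.47 without replicate 1 (adjusted p = 0.479) and -0.13 without replicate 2 (adjusted p = 0.795), and at 3.2 µM 0.07 ± 0.20, with an interval from -0.39 to 0.53.

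Within a library, the ratio of Tap1 to Tap2 does not depend on depth, and for both chains the change of the ratio does not depend on transcript length. Set against its mean in DMSO + LPS, where the libraries stood at 107 and 93.3%, the ratio was 61.1 and 83.4% in DMSO. With **1** it was 52.7 and 70.2% at 32 µM, 72.5 and 84.7% at 10 µM, then 81.0 and 89.9% at 3.2 µM. The ratio thus lay below the DMSO + LPS libraries in all other conditions, with a mean change of 0.614-fold at 32 µM (exact permutation test, two-sided, p = 0.333, the smallest that 2 against 2 libraries can give).

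Tapbp (ENSMUSG00000024308, chr17:33915899-33929292, plus strand), the gene of tapasin, had small differences between replicates. Its levels were 193 and 191 CPM in DMSO, 500.0 and 524 CPM in DMSO + LPS, and 336 and 321 CPM at 32 µM. They were 451 and 427 CPM at 10 µM and 479 and 473 CPM at 3.2 µM, and no condition overlapped with another. LPS raised it by 1.41 ± 0.05 (adjusted p = 1.6e-07). Against DMSO + LPS the change was -0.64 ± 0.05 at 32 µM (adjusted p = 1.1e-04), -0.22 ± 0.05 at 10 µM (adjusted p = 0.061) and -0.11 ± 0.05 at 3.2 µM (adjusted p = 0.999). The step from 10 to 32 µM, -0.42 ± 0.05, had an adjusted p of 0.0031 and was under the fold cutoff.

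The heavy chains H2-K1 (ENSMUSG00000061232, chr17:33996017-34000347, minus strand) and H2-D1 (ENSMUSG00000073411, chr17:35262730-35267499, plus strand) form the peptide-binding part of the class I molecule. H2-D1 had 769 and 738 CPM in DMSO, 1419.9 and 1500.2 CPM in DMSO + LPS, 1377 and 1364 CPM at 3.2 µM, 1357 and 1254 CPM at 10 µM, and 1190.4 and 1131 CPM at 32 µM. Its 5 conditions did not overlap, and the order was that of Tap1. LPS raised it by 0.95 ± 0.05 (adjusted p = 2.4e-06), while at 32 µM it changed by -0.33 ± 0.05 (adjusted p = 0.0061), which is under the fold cutoff. H2-K1 had 354 and 303 CPM in DMSO, 629 and 661 CPM in DMSO + LPS, 626 and 632 CPM at 3.2 µM, 634 and 504 CPM at 10 µM, and 548 and 429.9 CPM at 32 µM. LPS raised it by 0.97 ± 0.14 (adjusted p = 6.4e-04). Its value at 32 µM was -0.40 ± 0.14 (adjusted p = 0.137), its 95% interval ran from -0.72 to -0.07, and it was -0.24 without replicate 2 and -0.58 without replicate 1. Its levels at 10 and 3.2 µM overlapped with those of DMSO + LPS. The ratio of H2-K1 to H2-D1 at 32 µM was 104 and 86.1% of its DMSO + LPS mean and overlapped with the vehicle libraries at 100.3 and 99.7%.

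B2m (ENSMUSG00000060802, chr2:122147686-122153083, plus strand), the light chain of every class I molecule, had 489 and 417 CPM in DMSO, 769 and 789 CPM in DMSO + LPS, and 634 and 551 CPM at 32 µM. At 10 µM it had 816 and 697 CPM, overlapping with DMSO + LPS, and at 3.2 µM 865 and 807 CPM, both above DMSO + LPS. LPS raised B2m by 0.78 ± 0.11 (adjusted p = 4.4e-04). On library totals without TMM the value was 0.57 and under the fold cutoff, where the median over all genes lay at -0.20. The change at 32 µM was -0.40 ± 0.11 (adjusted p = 0.060), with an interval from -0.64 to -0.15, and it was -0.30 without replicate 2 at that dose (adjusted p = 0.288). Per kilobase of transcript, for the 2 members with a single protein-coding transcript, B2m had 906 ± 16.9 CPM per kb and Psmb10 65.4 ± 3.72 CPM per kb (SD, n = 2) in DMSO + LPS. The ratio of B2m to the sum of both heavy chains per kilobase at 32 µM was 99.1 and 93.3% of its DMSO + LPS mean, against 101 and 98.6% in those libraries, and these overlapped. It lay above DMSO + LPS without overlap at 10 µM (112 and 106%), at 3.2 µM (117 and 110%) and in DMSO (118 and 107%). The sum rests on median transcript lengths, which for H2-D1 is 406 nt where its longest is 2102 nt.

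Of the 3 immunoproteasome subunits, Psmb9 and Psmb10 were called lower at 32 µM and Psmb8 was not. Psmb9 (ENSMUSG00000096727, chr17:34181987-34187764, minus strand), which takes the place of Psmb6 and is also called LMP2, had 14.9 and 12.0 CPM in DMSO and 21.5 and 24.4 CPM in DMSO + LPS. With **1** it had 21.8 and 22.1 CPM at 3.2 µM, 17.8 and 14.3 CPM at 10 µM, and 8.83 and 7.28 CPM at 32 µM. The 32 µM libraries were the lowest of all 10, below both DMSO libraries. LPS raised Psmb9 by 0.77 ± 0.15 (adjusted p = 0.0029), and 32 µM changed it by -1.51 ± 0.15 (adjusted p = 5.3e-04). On library totals the LPS value was 0.56, under the fold cutoff. Against DMSO the 32 µM value was -0.74 ± 0.15 (adjusted p = 0.0042), and Psmb9 was the 1 member called lower than DMSO, where 13.3% of genes were. That call was lost without replicate 1 of DMSO, at -0.58 (adjusted p = 0.028), just under the fold cutoff. From 10 to 32 µM it changed by -0.995 ± 0.15 (adjusted p = 0.013), a call that was lost without replicate 1 at 10 µM (-0.83, adjusted p = 0.055) and without replicate 2 at 32 µM (-0.86, adjusted p = 0.104). At 10 µM the value was -0.51 ± 0.15 (adjusted p = 0.165).

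Psmb10 (ENSMUSG00000031897, chr8:105935735-105938444, minus strand), also called MECL-1, takes the place of Psmb7. Its levels were 39.7 and 34.3 CPM in DMSO, 82.3 and 89.2 CPM in DMSO + LPS, 79.3 and 79.8 CPM at 3.2 µM, 64.3 and 57.7 CPM at 10 µM, and 38.1 and 32.9 CPM at 32 µM. The 32 µM libraries overlapped with DMSO and with no other condition. LPS raised Psmb10 by 1.21 ± 0.10 (adjusted p = 2.2e-05). Against DMSO + LPS it changed by -1.27 ± 0.10 at 32 µM (adjusted p = 1.3e-04) and by -0.49 ± 0.10 at 10 µM (adjusted p = 0.044, under the fold cutoff), the latter being -0.57 (adjusted p = 0.069) without replicate 1 at 10 µM and -0.44 (adjusted p = 0.113) without replicate 2. The step from 10 to 32 µM was -0.78 ± 0.10 (adjusted p = 0.0054). Against DMSO the 32 µM value was -0.06 ± 0.10, with an interval from -0.29 to 0.17. Members called lower between 10 and 32 µM were thus Tap1, Psmb9 and Psmb10, 3 of 10, where 1.15% of genes were called lower in that step and 0.169% higher. In a fit of only the 4 libraries compared all 3 calls were lost, with values of -0.92, -0.99 and -0.78 (adjusted p = 0.076, 0.201 and 0.149). Between 3.2 and 10 µM none was called, where 0.183% of genes were called lower and 0.0706% higher.

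Psmb8 (ENSMUSG00000024338, chr17:34197721-34201454, plus strand), also called LMP7, takes the place of Psmb5 and varied most between replicates. It had 18.2 and 8.33 CPM in DMSO, 40.1 and 43.3 CPM in DMSO + LPS, 54.5 and 47.8 CPM at 3.2 µM, 61.5 and 20.2 CPM at 10 µM, and 27.4 and 8.21 CPM at 32 µM. Replicate 1 was well above replicate 2 in DMSO and at 10 and 32 µM. LPS changed it by 1.65 ± 0.66 (adjusted p = 0.070), with values from 1.15 to 2.32 over 19 alternatives. The gene was called higher in 9 of the 19, among them those without 1 of the 10 or 32 µM libraries. At 32 µM its value was -1.23 ± 0.65 (adjusted p = 0.335), with an interval from -2.74 to 0.29. It was -0.61 without replicate 2 at 32 µM (adjusted p = 0.775) and -2.34 without replicate 1 (adjusted p = 0.134). At 10 µM it was -0.03 ± 0.63, with -1.05 without replicate 1 (adjusted p = 0.581) and 0.54 without replicate 2 (adjusted p = 0.673). Replicate 2 was also the library with the lower short-transcript score, the median log2 level of 594 protein-coding genes with transcripts under 1000 nt relative to the mean of all libraries, in DMSO (-0.35 against 0.03), at 10 µM (-0.11 against 0.28) and at 32 µM (-0.25 against 0.13). With that score in the fit, an alternative chosen after the data were seen, the value of Psmb8 was 1.15 with LPS (adjusted p = 2.0e-06) and -1.16 at 32 µM (adjusted p = 5.7e-06). Every other member was also lower in replicate 2 than in replicate 1 at 10 and 32 µM.

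**Figure D3:**
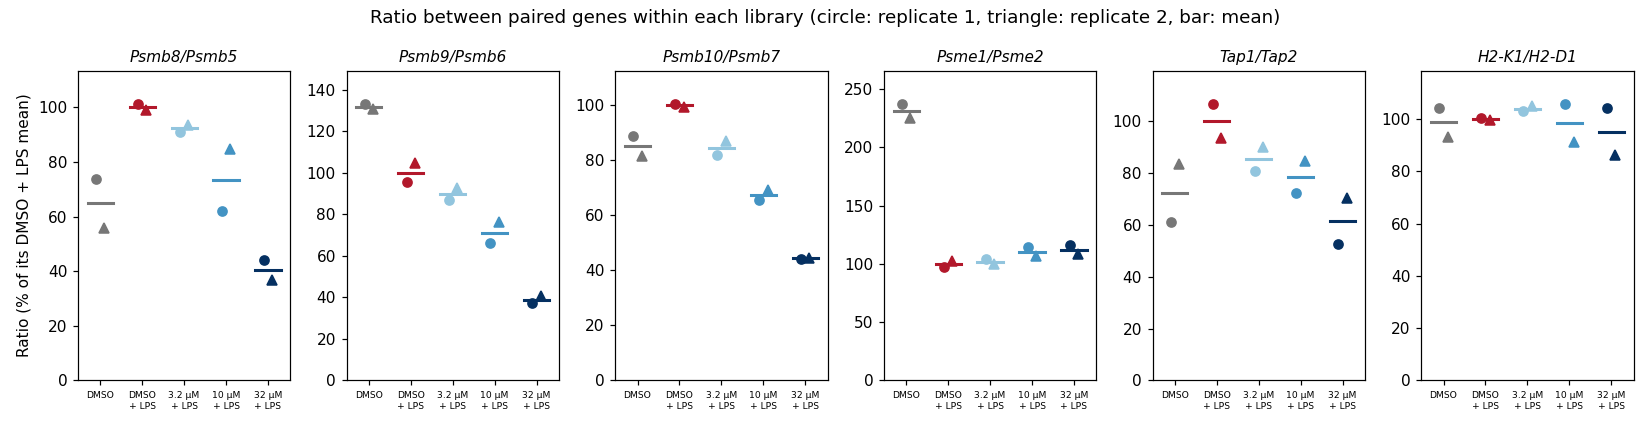
Ratio of paired genes within each library, as a percentage of the mean ratio of the 2 DMSO + LPS libraries, on axes from 0: each immunoproteasome subunit over the constitutive subunit it replaces, Psme1 over Psme2, Tap1 over Tap2, and H2-K1 over H2-D1. Circles are replicate 1, triangles replicate 2 and bars means; the 3 immunoproteasome ratios fall from DMSO + LPS to 36.9 to 44.5% at 32 µM, while H2-K1 over H2-D1 overlaps with DMSO + LPS there.

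The ratio of each immunoproteasome subunit to its constitutive counterpart compares the levels of the alternative subunits of a catalytic position in a library. Psmb5 varied between replicates much as Psmb8 did, with 79.3 and 28.4 CPM at 32 µM and 127 and 30.6 CPM at 10 µM. The ratio of Psmb8 to Psmb5 was less spread. It was 73.9 and 55.7% of its DMSO + LPS mean in DMSO, 91.1 and 93.3% at 3.2 µM, 61.9 and 84.6% at 10 µM, then 44.2 and 36.9% at 32 µM, against 101 and 98.8% in DMSO + LPS. Psmb10 to Psmb7 was 88.8 and 81.7% in DMSO, 82.1 and 87.1% at 3.2 µM, 65.4 and 69.2% at 10 µM, then 44.2 and 44.5% at 32 µM. Psmb9 to Psmb6 was 133 and 130% in DMSO, 87.0 and 92.8% at 3.2 µM, 65.9 and 76.2% at 10 µM, then 37.2 and 40.4% at 32 µM. For all 3 pairs the 32 µM libraries were the lowest, at 0.406-, 0.444- and 0.388-fold of DMSO + LPS, and did not overlap with any other condition. With LPS the ratios of Psmb8 and Psmb10 rose by 1.54- and 1.17-fold, while that of Psmb9 was 0.759-fold, since Psmb6 rose more (1.17 ± 0.19, adjusted p = 0.0012) than Psmb9 did. Each of these 2 against 2 comparisons gave p = 0.333 in the two-sided exact permutation test, the smallest it allows.

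Psme1 (ENSMUSG00000022216, chr14:55578123-55581529, plus strand) and Psme2 encode the α and β chains of the PA28 activator, which opens the proteasome core. Psme1 had 78.1 and 70.1 CPM in DMSO, 84.7 and 91.4 CPM in DMSO + LPS, 94.7 and 88.8 CPM at 3.2 µM, 89.3 and 76.5 CPM at 10 µM, and 67.9 and 58.7 CPM at 32 µM. The 32 µM libraries were the lowest of all. The LPS value was 0.25 ± 0.10 (adjusted p = 0.074), with 0.04 (adjusted p = 0.770) on library totals and 0.16 (adjusted p = 0.376) without replicate 2 of DMSO, and that at 32 µM was -0.48 ± 0.10 (adjusted p = 0.023, under the fold cutoff). Psme2, which is no member, had 111 and 105 CPM in DMSO, 293 and 299 CPM in DMSO + LPS, and 197 and 182 CPM at 32 µM, and was called in both comparisons (1.46, adjusted p = 4.3e-07, and -0.64, adjusted p = 3.3e-04). The ratio of Psme1 to Psme2 was 237 and 225% of its DMSO + LPS mean in DMSO and 116 and 108% at 32 µM, so that the shift with LPS was far larger than the spread between replicates.

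The share of the LPS rise that was left at a dose, the distance of the dose from DMSO over the distance of DMSO + LPS from DMSO on the CPM scale, ordered the 8 members called with LPS. At 32 µM it was largest for H2-D1, 57.7%, with its libraries at 53.5 and 61.8%, and for H2-K1, 50.7%, with libraries at 32.0 and 69.3%. B2m (42.7%, libraries at 30.1 and 55.4%), Tapbp (42.6%, at 40.3 and 44.97%) and Tap2 (33.6%, at 17.9 and 49.3%) came next, and their libraries overlapped with those of H2-K1. Tap1 had 12.5% left, with libraries at 10.7 and 14.3%, and Psmb10 -3.08%, with libraries at -8.34 and 2.19%. Psmb9 stood at -57.3%, with libraries at -65.5 and -49.1%, below its level in DMSO. At 10 µM the mean share was lowest for Psmb9, 27.4%, but its libraries lay far apart, at 45.9% in replicate 1, the library with epithelial marker counts, and at 8.90% in replicate 2. Psmb10 had 49.1% left, with libraries at 42.3 and 55.9%, and Tap1 53.0%, with libraries at 48.9 and 57.1%. B2m had the highest mean, 93.1%, with libraries at 74.8 and 111%. At 3.2 µM the means ran from 86.6% (Tap1, libraries at 86.2 and 86.9%) to 118% (B2m, libraries at 109 and 126%). The doses share the DMSO and DMSO + LPS libraries, and these shares are descriptions with no test.

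**Figure D4:**
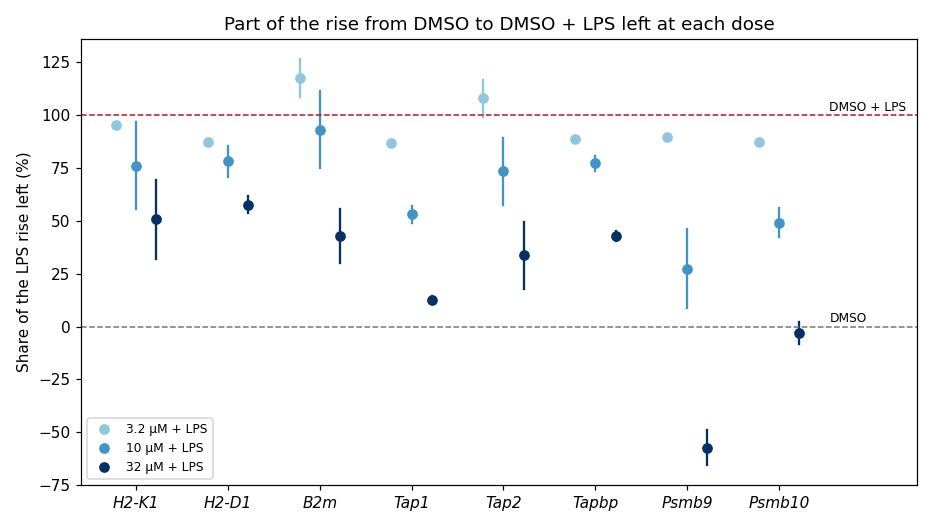
Share of the rise from DMSO to DMSO + LPS left at each dose of **1** for the 8 members called higher with LPS, in percent, where 0 is the DMSO mean and 100 the DMSO + LPS mean. Points are means and lines join the 2 libraries; at 32 µM H2-D1 keeps 57.7% and Psmb9 lies at -57.3%, and at 3.2 µM all 8 are at 86.6% or above.

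Against resting cells in DMSO, the 32 µM libraries split the group. H2-D1 (0.62 ± 0.05, adjusted p = 3.2e-05), Tap2 (0.71 ± 0.20, adjusted p = 0.020) and Tapbp (0.77 ± 0.05, adjusted p = 5.0e-06) were called higher, 3 of 10, where 13.9% of genes were. H2-K1 (0.57 ± 0.14, adjusted p = 0.010), Tap1 and B2m (0.39 ± 0.11, adjusted p = 0.017) were higher with changes under the fold cutoff. On library totals these were 0.37 (adjusted p = 0.060), 0.27 (adjusted p = 0.011) and 0.19 (adjusted p = 0.194), and B2m was 0.24 (adjusted p = 0.148) without replicate 2 of DMSO. On library totals without TMM none of the 3 calls was kept, with values of 0.42 for H2-D1, 0.51 for Tap2 and 0.57 for Tapbp against a median over all genes of -0.18, and without replicate 2 of DMSO only Tapbp was called. Tap2 was not called without replicate 1 at 32 µM (0.42), nor by edgeR in a fit of only the 4 libraries compared (0.70, adjusted p = 0.066). H2-K1 was called without replicate 1 of DMSO (0.69) or replicate 2 at 32 µM (0.73). Psmb8 (0.42 ± 0.66), Psmb10 and Psme1 (-0.23 ± 0.10, adjusted p = 0.0999) did not pass the test. Psme1 was -0.43 (adjusted p = 0.0089) on library totals and -0.13 (adjusted p = 0.408) without replicate 2 at 32 µM. The direction of Psmb8 depended on the library left out, from -0.70 without replicate 1 at 32 µM to 1.09 without replicate 1 of DMSO, and the lowest adjusted p of its 19 alternatives was 0.233.

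Of 11 further genes of the pathway, 3 were called higher with LPS: Psme2, Hspa5, the chaperone BiP (1.18), and Tapbpl, the tapasin-related editor (0.88). At 32 µM 1 was called lower, Psme2, and the median was -0.08. Calr, which encodes calreticulin of the loading complex (-0.31, adjusted p = 0.0042), Erap1, which encodes the peptide-trimming aminopeptidase (-0.44, adjusted p = 0.016), and Hspa5 (-0.33, adjusted p = 0.010) were lower by less than 1.5-fold. Canx, Pdia3, Pomp, Tpp2, Ide, Psme3 and Tapbpl had adjusted p from 0.14 to 0.95 at 32 µM. None of the 11 was called at 10 or 3.2 µM. The 14 constitutive core proteasome genes were mostly raised by LPS, 10 of 14 being called higher with a median of 0.73. At 32 µM 0 of 14 were called by edgeR, with a median of -0.11 and a lowest value of -0.40 (Psma6, adjusted p = 6.1e-04).

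Among 12 other class I heavy-chain and class I-like genes, 6 were called higher with LPS, from H2-T22 (2.50) down to H2-M3 (0.94), and 2 lower, Mr1 (-1.53), which presents microbial metabolites, and Fcgrt (-1.48), which encodes the neonatal Fc receptor chain. At 32 µM 3 were called lower: H2-T24 (-1.48, adjusted p = 4.7e-06), H2-T22 (-1.40, adjusted p = 2.1e-06) and H2-T23 (-0.96, adjusted p = 1.4e-04). H2-T22 and H2-T24 were called lower at 10 µM too (-0.64 and -0.61). H2-Q6, raised 1.59 by LPS, had -0.09 at 32 µM (adjusted p = 0.62). Among regulators of the pathway, LPS raised Ifnb1 (3.68) and Nlrc5 (1.79) and lowered Rfx5 (-0.99). Over the 10 regulators tested, 1 of them not reported here, the median log2 fold change with LPS was 0.10, with 6 positive and 4 negative values. At 32 µM the median was -0.19, with 3 positive and 7 negative values, and no regulator was called higher. Ifnb1 and Nlrc5 were called lower at 32 µM. Nlrc5, the transactivator of class I genes, had 20.3 and 21.3 CPM in DMSO, 74.6 and 68.9 CPM in DMSO + LPS, 44.5 and 52.3 CPM at 10 µM, and 27.0 and 32.8 CPM at 32 µM (-1.26, adjusted p = 2.0e-04). Ifnb1, which encodes interferon β, rested on few counts, 60 and 58 in DMSO + LPS and 12 and 11 at 32 µM (-2.21, adjusted p = 0.0024). Irf1, a transcription factor of the interferon response, was not called with LPS, with means of 23.99 CPM in DMSO and 26.10 CPM in DMSO + LPS. At 32 µM Irf1 had -0.41 (adjusted p = 0.017, under the fold cutoff). The means of Ifnar1, also a listed regulator, were 124.8 CPM in DMSO + LPS and 137.2 CPM at 32 µM. Those of Ifnar2 were 32.67 and 37.65 CPM, and neither of these genes was called at 32 µM.

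**Figure D5:**
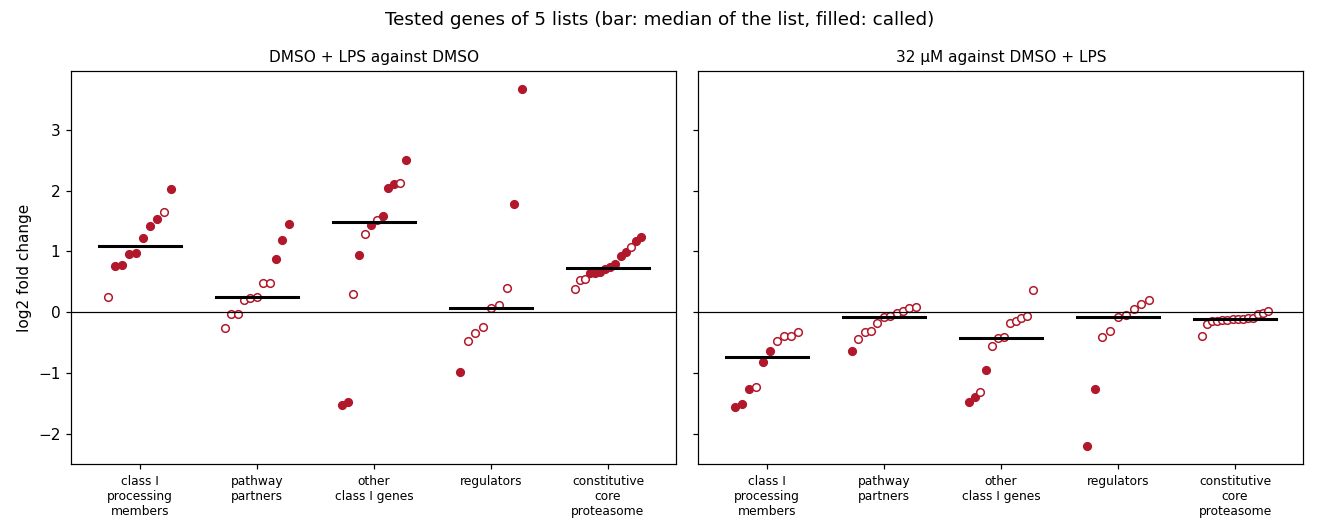
Log2 fold change of the tested genes of 5 lists (10 members, 11 pathway partners, 12 other class I genes, 9 regulators and 14 constitutive core proteasome genes) for DMSO + LPS against DMSO and for 32 µM against DMSO + LPS. Bars are medians and filled points were called; at 32 µM the median is -0.73 for the members and -0.11 for the constitutive core, of which 0 of 14 were called.

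The genes whose pattern was most like that of the 10 members were ranked by Pearson's r between their log2 level and the members' mean standardized log2 level over the 10 libraries, among 9552 genes with a mean of at least 5 CPM. Among the highest were Cd52 (r = 0.991), H2-T10 (0.991), Nub1 (0.987) and Rnf114 (0.986). These r describe 10 libraries that share conditions and scaling. Cd52 had 48.7 and 29.6 CPM in DMSO, 197 and 203 CPM in DMSO + LPS, 209.5 and 199.8 CPM at 3.2 µM, 149.8 and 115 CPM at 10 µM, and 83.3 and 55.6 CPM at 32 µM. Among the members, Tap2 was most like the mean of the other 9 (r = 0.979), and Psmb9 (0.764) and Psme1 (0.802) were least like it.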

How the data were processed

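RNA-seq of 10 libraries (5 conditions, 2 each) was analyzed. The authors made poly(A)-selected directional libraries sequenced at 2 × 150 cycles and deposited raw counts per Ensembl gene, not normalized. The submitters' processing notes name Trimmomatic, FastQC, STAR, DESeq2 and the build mm10. The counting tool, its strand setting and annotation are not given in the sources used here. Symbols and positions are from GENCODE M21 (GRCm38), promoters from RefSeq (GRCm38.p6).

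The filterByExpr function (minimum count of 10) kept 14172 genes. Counts were TMM-scaled and fitted with 1 mean per condition over all 10 libraries by edgeR 4.0.16 (R 4.3.3, limma 3.58.1), with Benjamini-Hochberg adjustment over the 14172 genes. The common biological coefficient of variation was 0.128. Standard errors are |log2 fold change| over the square root of F. Library totals were 45966803 to 58976377 counts. The standard error at 32 µM against DMSO + LPS was 0.15 for Psmb9, with 329 to 1230 counts a library. It was 0.14 for H2-K1, with 17220 to 36003 counts, and 0.65 for Psmb8. Alternatives were DESeq2's size factors, library totals, no filter, genes averaging 5 CPM or more, a replicate block, edgeR's likelihood ratio test, DESeq2 1.42.0's Wald test, edgeR on the 4 libraries compared, a 2-fold cutoff, leaving out each library and, chosen after seeing the data, a short-transcript score. The steps were tested on simulated data.

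The members and gene lists were chosen with earlier results of these data known. The rule names the members, called genes of the lists, partners of a member and the 5 genes most like the members. Other list genes were named after their values were seen. H2-L was not analysed here, and 1 gene is not reported here.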

Additional observations from a re-analysis of the deposited data

Results flagged for a closer look

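Some libraries held counts of marker genes of other cell types above those of the vehicle libraries. In replicate 1 at 10 µM the 3 epithelial markers summed to 1690 counts and 4 fibroblast markers to 206. In replicate 1 at 3.2 µM they summed to 256 and 37. The 4 vehicle libraries held 0 to 4 epithelial and 3 to 13 fibroblast counts. The part of these counts in the class I values was not tested beyond leaving out the libraries. Without replicate 1 at 10 µM, the values at 10 µM moved down for all 10 members. Tap1 was -0.70 (adjusted p = 0.0048) in place of -0.63, H2-K1 -0.35 in place of -0.18, Tap2 -0.47 in place of -0.28 and Psmb8 -1.05 in place of -0.03, and of the 10 only Tap1 was called, as with that library.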

How the results depend on the processing

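No log2 fold change that was called in the reported fit changed sign, and of the log2 fold changes under an alternative 1295 stayed on the same side of the cutoffs, 22 lost a call and 13 gained one. At a 2-fold cutoff, 4 members were called higher with LPS in place of 8, 3 lower at 32 µM in place of 5, 0 lower at 10 µM, 0 lower from 10 to 32 µM, and 0 higher and 0 lower at 32 µM against DMSO. The shares of all genes called at that cutoff are not given here, so these counts cannot be set against them. With edgeR on the 4 libraries compared, 0 were called lower at 10 µM (in place of 1) and 0 from 10 to 32 µM (in place of 3). In that fit 30 of 13350 and 5 of 13355 genes were called lower in these comparisons. Tap2 also lost its calls at 32 µM against DMSO + LPS and against DMSO there. On library totals 0 were called higher at 32 µM against DMSO (in place of 3); this scaling moved the median of all genes to -0.20 for LPS and -0.18 for 32 µM against DMSO, and all genes called with LPS were then 1582 higher and 2938 lower in place of 2072 and 1923. Leaving out each library in turn, the members called ranged from 8 to 9 with LPS, from 4 to 5 lower at 32 µM, from 2 to 3 lower from 10 to 32 µM, from 1 to 4 higher and from 0 to 1 lower at 32 µM against DMSO, and stayed at 1 at 10 µM. The lone library left in a condition is then assumed to vary like the others. The causes were not tested.

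The replicate numbers were not taken as pairing the samples, since not every pair of conditions had a correlation of replicate differences over 0.1: it ran from 0.104 to 0.573 in the 6 pairs without DMSO + LPS and from -0.169 to -0.066 in the 4 pairs with it. With the replicate block, 9 members were called higher with LPS, Psmb8 being added (1.81, adjusted p = 0.0095), 5 lower at 32 µM and 1 at 10 µM, and no other call of a member changed. The likeness ranking by Spearman's rho kept 1 of the first 5 genes by Pearson's r in its own first 5 and 3 in its first 20. Psmb8, with the largest replicate spread, is the member for which 2 libraries a condition limit the result most.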

Other observations

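Class II genes were mostly at low counts. Of 7 listed, 6 were tested and 0 were called with LPS or at any dose against DMSO + LPS. H2-DMa, a chain of the class II peptide editor, had 12.7 and 12.1 CPM in DMSO, 15.7 and 15.8 CPM in DMSO + LPS (0.34 ± 0.07, adjusted p = 0.0036, under the fold cutoff), and 12.8 and 14.2 CPM at 32 µM (-0.22 ± 0.07, adjusted p = 0.092). Cd74, the invariant chain, had 98.3 to 149 CPM across the 10 libraries. The class II chains H2-Aa, H2-Ab1 and H2-Eb1 had 0 to 11 counts each in 8 libraries, 86, 96 and 72 counts in replicate 1 at 10 µM, and 28, 41 and 12 counts in replicate 1 at 3.2 µM. Ciita, the class II transactivator, had 0 to 10 counts. The 3 dendritic cell markers summed to 119 and 117 counts in DMSO and to 322 to 409 elsewhere, where Xcr1 rose with LPS (4.46, adjusted p = 7.1e-06), while Zbtb46 had -0.24 (adjusted p = 0.287) and Flt3 0 to 4 counts.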
